A study of Mus musculus with 28 samples.

Results

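Resting CD4 T cells of old mice were compared with resting CD4 T cells of young mice. The arrays were chosen by their labels, as the CD4 arrays at 0 h, and were 6 of the 28 arrays of the series, 3 per age. The series measured RNA of CD4 and CD8 T cells before and after stimulation with antibodies against CD3 and CD28, on one-colour Agilent arrays on which every sample carries the dye Cy3. All mice were BALB/c, an inbred strain, with no engineered allele named, and were 20 months (old) or 4 months (young) of age. The labels give the stimulating antibodies as the treatment of every sample, with a time of 0 h for the 6 arrays compared here. RNA of each time point was pooled from 4 sortings done on different days, and the 3 arrays of an age are described as replicates of such pools. Nothing in the labels says that the 3 pools came from separate mice, so p-values measure only the spread between these samples, which may be technical. The labels conflict on the sort: titles and the growth protocol describe cells with much CD44, whereas sample descriptions and the design text describe naive cells with little CD44.

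Naive CD4 cells leave the thymus, circulate through lymph nodes and have not yet met their antigen. After antigen contact some of their progeny persist as memory cells, which carry receptors for inflamed tissue and transcribe cytokine, chemokine and granule genes more readily. Helper cells differ by the master regulators and cytokines that they use, with T-bet (Tbx21) and interferon gamma for T helper 1, and Gata3 and interleukin 4 for T helper 2. With age the output of the thymus falls and memory-like cells make up more of the CD4 pool. In RNA from a bulk sort, fewer cells of a type and less RNA per cell cannot be told apart.

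The 6 arrays lay on 2 slides. Replicates 1 and 2 of both ages shared slide 1, read on a G2505C scanner with Feature Extraction 10.1.1.1, and replicate 3 of both ages shared slide 2, read on a G2505B scanner with version 9.5.1.1. Slide, scanner and software version therefore changed together. Between 19972 and 28807 of 41174 probes were well above background per array, with the 2 highest numbers on slide 2. Signals below are log2 of the processed signal relative to the 75th percentile of the array, and an age difference is old minus young on that scale. Arrays of one age on slide 1 were close to each other, and their log2 differences had a standard deviation of 0.32 in old and 0.38 in young cells. Arrays of one age on different slides stood 0.99 to 1.02 apart. Because each slide held both ages, slide was a block in the test, and the difference on each slide or the value on each array is given for most genes named.

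Both young arrays of slide 1 stood apart from the other young array in sex-linked transcripts, and the labels give no sex. Xist, the RNA that coats the silenced X chromosome in female cells, was at 3.29, 3.22 and 3.68 in old replicates 1 to 3. In young cells it was at -6.82, -5.94 and 3.40. Xist was thus low in young replicates 1 and 2 and high in young replicate 3 and in every old array. It lay between 2.15 and 4.02 on the other 18 arrays read here, which included all CD8 arrays at 0 h and all stimulated CD4 arrays. The Y-linked genes Eif2s3y, Ddx3y and Kdm5d were high in young replicates 1 and 2. Eif2s3y, a translation factor subunit, was at 2.16 and 2.35 in young replicates 1 and 2 and above background on 0 of the other 18 arrays. Ddx3y, an RNA helicase, was at 1.06 and 1.25 in them, and Kdm5d, a histone demethylase, at -0.43 and -0.32. Of the other 18 arrays, Ddx3y was above background on 1 and Kdm5d on 2. The probe of Uty, another Y-linked gene, was less clear, at -3.92 and -3.99 in young replicates 1 and 2 and at 0.46 on the old array at 12 h, the only one of the other 18 on which it was above background. On slide 1 age and sex-linked transcripts cannot be told apart. On slide 2 both ages had high Xist, so the slide 2 difference or the array values are given below for most genes that were called.

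**Figure D1:**
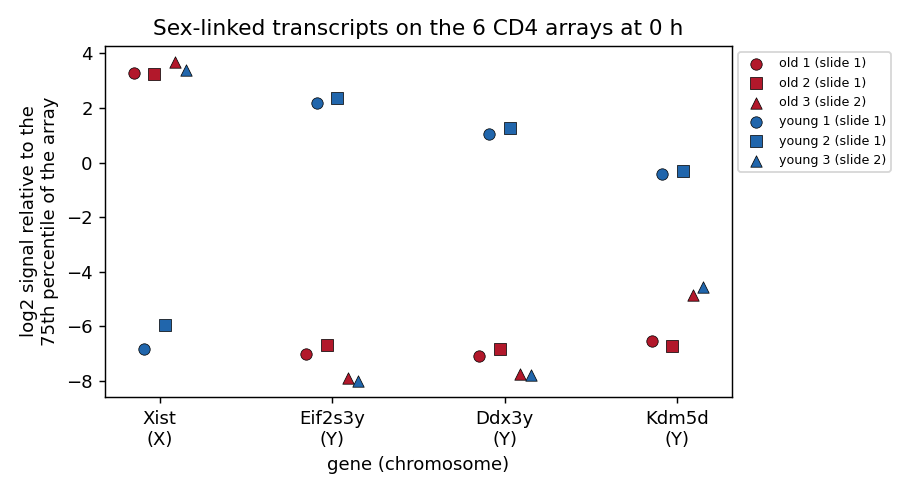
Log2 signal of Xist and 3 Y-linked genes relative to the 75th percentile of the array, 1 point per array, red for old and blue for young. Circles and squares are replicates 1 and 2 on slide 1 and triangles replicate 3 on slide 2. Young replicates 1 and 2 sit near -6 for Xist and above the other 4 arrays for each Y-linked gene.

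The sort was checked with genes of the lineage and of other cell types. The 8 genes that mark CD4 T cells, among them Cd3d, Lck and Cd4, were above background on all 6 arrays. Cd4, the coreceptor for MHC class II, was at -0.36, -0.37 and -1.56 in old and at 0.28, 0.29 and -0.27 in young cells. It was 0.86 ± 0.14 (SE) lower in old cells (limma, adjusted p = 0.0040), by 0.65 on slide 1 and 1.29 on slide 2, and it missed the threshold without the slide block (adjusted p = 0.19). Cd44, the gate marker on which the labels conflict, was at 2.21, 2.22 and 2.73 in old and at 2.29, 2.33 and 2.18 in young cells. Its ages overlapped and it was not called (0.12 ± 0.18, adjusted p = 0.63). The CD8 chain genes were above background on all 6 arrays too, Cd8a at -3.37 to -1.92 and Cd8b1 at 2.51 to 3.51.

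Of all 15363 genes tested, 2599 (16.9%) were called higher and 2505 (16.3%) lower in old cells at an adjusted p under 0.05. For 4965 genes (32.3%) the call came with no overlap of the ages on either slide. The test set the age difference against a spread made mostly of arrays that shared a slide. Without the slide block 556 genes (3.62%) were called, 358 higher (2.33%) and 198 lower (1.29%), and all of them were among the 5104. At least 2-fold differences in the same direction on both slides were found for 442 genes that were higher (2.88%) and 254 that were lower (1.65%). Over genes, the differences on slide 1 and slide 2 had a Pearson correlation of 0.46 and the same sign for 69.9%. The age difference itself differed between slides for 5277 of 15341 genes (34.4%) in a limma fit with 4 residual degrees of freedom. It was more positive on slide 1 for 2383 and less positive for 2894. With the arrays of an age and slide averaged to 1 sample, 2 genes were called, Pla2g5 and AK076876, and 3116 had an unadjusted p under 0.05.

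**Figure D2:**
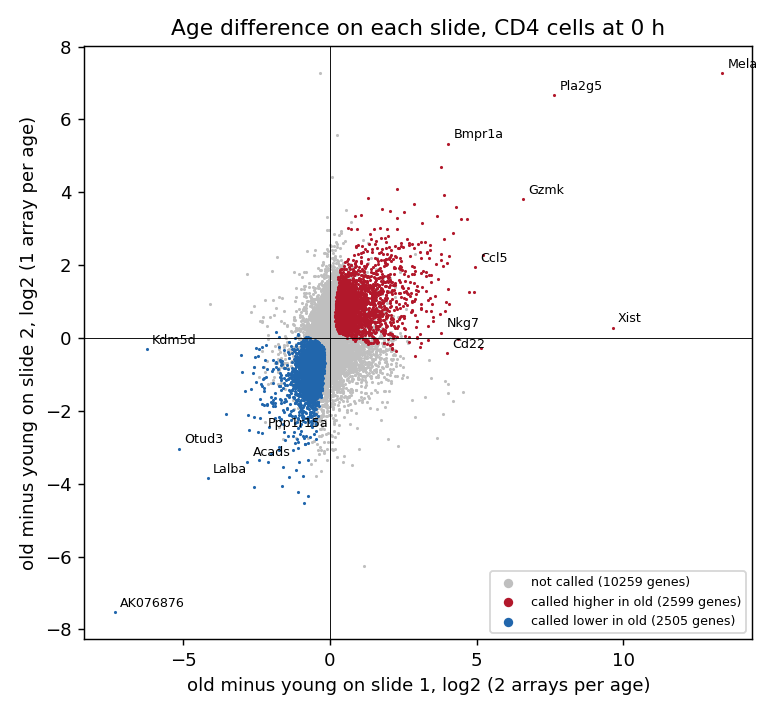
Age difference of each gene on slide 1 (x axis, 2 arrays per age) and slide 2 (y axis, 1 array per age), in log2 units. Red and blue points are genes called higher or lower in old cells and grey points were not called. Mela, Pla2g5 and AK076876 lie far from 0 on both axes, whereas Xist and Kdm5d lie far from 0 on slide 1 only.

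The largest increases were in single genes of unlike function. Mela, a melanoma antigen gene that derives from an endogenous retrovirus, was at 7.22, 7.45 and 5.26 in old cells and at -6.08, -5.99 and -2.001 in young cells. Only young replicate 3 was above background, so the difference of 11.33 ± 1.04 (adjusted p = 0.00048) is not exact. It was large on both slides, at 13.37 and 7.26. Pla2g5, a secreted phospholipase that frees fatty acids from membranes, was at 1.46, 1.46 and 1.09 in old and at -6.97, -5.40 and -5.57 in young cells. The ages did not overlap on either slide and the difference was 7.32 ± 0.43 (adjusted p = 0.00012), 7.65 on slide 1 and 6.67 on slide 2. Bmpr1a, a receptor for bone morphogenetic proteins, was at -0.60, -0.57 and 0.49 in old and at -4.40, -4.82 and -4.84 in young cells. Its difference of 4.46 ± 0.29 (adjusted p = 0.00018) was 4.03 on slide 1 and 5.34 on slide 2. Prkar2a, a regulatory subunit of protein kinase A, stood 4.66 higher on slide 1 and 3.26 on slide 2. Kcnip3, a calcium sensor that binds potassium channels and DNA, was not well above background on any young array and was at least 5.34-fold higher, with slide differences of 4.48 and 3.28. The unnamed transcript AK040413 was higher by 4.31 on slide 1 and 3.60 on slide 2, and TC1488278 by 3.88 and 3.92. AK015205, for which no young array was above background, was at least 6.44-fold higher, and the slides gave 3.796 and 4.68. Pla2g5, Bmpr1a, Prkar2a and TC1488278 were, like Mela, above background on 1 of 3 young arrays, so their differences are approximate. Xist was also among the 12 largest increases, through slide 1 alone (9.64 against 0.28 on slide 2).

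The largest decrease was that of the transcript AK076876, at -7.09, -6.82 and -7.13 in old and at 0.38, 0.39 and 0.40 in young cells. No old array was above background, and it was at least 46.6-fold lower in old cells (limma, adjusted p = 2.9e-06). Otud3, a deubiquitinase, was at -3.52, -3.52 and -1.21 in old and at 1.63, 1.61 and 1.83 in young cells, a difference of -4.44 ± 0.50 (adjusted p = 0.0010). Every old array lay below every young array for both genes. Lalba, known as a milk protein gene, was at -5.04, -4.78 and -4.69 in old and at -0.86, -0.62 and -0.84 in young cells. Sox4, a transcription factor of early lymphocytes, was at -3.85, -3.73 and -3.79 in old and at -0.95, -1.14 and -1.27 in young cells. Its difference of -2.67 ± 0.15 (adjusted p = 8.3e-05) was nearly the same on both slides, -2.74 and -2.53. Acads, the mitochondrial dehydrogenase of short-chain fatty acids, was at -2.43, -2.18 and -4.84 in old and at 0.58, 0.45 and -1.45 in young cells. The ages did not overlap, and slides 1 and 2 gave differences of -2.82 and -3.39. BALB/c substrains are known to differ at Acads, and the labels give no substrain. Fthl17e, a ferritin-like gene, differed by -3.55 on slide 1 and -2.08 on slide 2, and Srrm4, a splicing regulator known from neurons, by -2.42 and -3.35. Rab3il1, an exchange factor for small GTPases, differed by -2.57 and -4.10 and LOC628368 by -2.79 and -2.12. Rab3il1, LOC628368, Lalba and Kdm5d were above background on 1 of 3 old arrays, so their differences are approximate. Lad1, an anchoring filament protein, was at least 4.54-fold lower, with -2.12 and -3.40 on the slides, and Bgn, a matrix proteoglycan, at least 2.74-fold lower, with -2.44 and -2.59. Kdm5d was in this set through slide 1 (-6.24, against -0.31 on slide 2). Of the 24 leading genes, 22 were also called without the slide block, and the exceptions were Xist (adjusted p = 0.11) and Fthl17e (adjusted p = 0.11). The leading genes were chosen by large differences on these same arrays. Their count is therefore not comparable with the 3.62% of all genes called without the block.

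**Figure D3:**
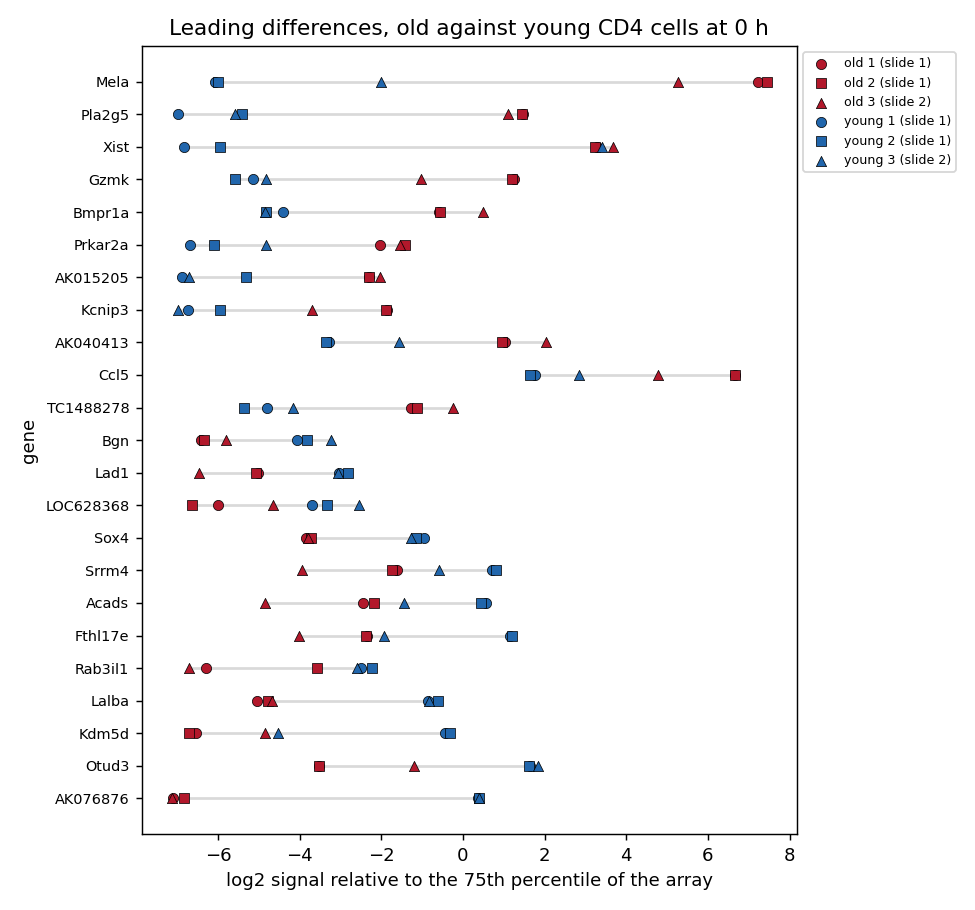
Log2 signal relative to the 75th percentile of the array for the genes reported among the 12 largest increases and 12 largest decreases, 1 point per array, red for old and blue for young. Circles and squares are replicates 1 and 2 on slide 1 and triangles replicate 3 on slide 2. For Pla2g5, Bmpr1a, Otud3, Sox4 and AK076876 the red and blue points do not overlap, whereas for Xist and Kdm5d the blue triangle lies beside the red points.

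Some leading genes were neighbours on a chromosome, which was seen after their values were known. On mm7, the probe of Pla2g5 lies at chromosome 4, 138177891 to 138177950, that of AK076876 at 138269584 to 138269643 and that of Otud3 at 138273865 to 138273924. Pla2g5 is 91.7 kb from AK076876, which is 4.3 kb from Otud3, and Pla2g5 was higher while the other two were lower in old cells. Within 500 kb on either side 14 other genes were measured and 7 of them were called, where 33.2% of all genes were, with differences of at most 1.76. That largest one was Pla2g2d, another secreted phospholipase, at 2.89 on slide 1 and -0.48 on slide 2. On chromosome 14 the probe of Bmpr1a lies at 31844499 to 31844558, and TC1488278 lies 29.3 kb away. Between both genes and the flanking Glud1 (0.25, adjusted p = 0.083) lies Mmrn2, an endothelial matrix protein gene, which was higher by 3.42 on slide 1 and 2.56 on slide 2 (adjusted p = 0.00016). Of the 8 other genes measured there 2 were called, Mmrn2 and Npy4r (-1.87, adjusted p = 0.0059), which is below the share of all genes.

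Some genes named above and below were above background on only 1 or 2 of 3 arrays of their lower age, and their differences are likewise approximate. Besides the leading genes, these were Ccr2, Ccr4, Cd22, Cd38, Cdh1, Cdkn2b, Cybb, Gpr15, Gzmb, Havcr2, Ier3, Il18rap, Il4, Ltb4r1, Mmrn2, Nlrc4, Oasl2, Pla2g2d, Tnfsf4 and Xcl1 in young cells, and Il13, Itga2b, Ncr1, Nog and Npy4r in old cells.

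Memory, effector and T helper 1 genes were higher in old cells. Of 40 memory and effector genes 38 passed the filter on dim probes, and 27 were called higher and 1 lower, where 16.9% and 16.3% of all genes were. Their median difference was 1.01, and 0.96 and 0.78 on the slides, beside 0.046, 0.0014 and 0.066 over all genes. Of 20 T helper 1 genes 18 were measured, with 14 called higher, 1 lower and a median of 2.02 (2.50 and 1.09 on the slides). Dim genes could pass the filter through one age alone. Among genes above background on all 6 arrays, 23 of 33 memory genes and 10 of 14 T helper 1 genes were called higher, against 16.4% of 12947 genes. Without the slide block 7 memory genes and 7 T helper 1 genes were called higher, against 2.33% of all genes. The slide 2 pair alone has 1 array per age, so age is not replicated there and only its medians, given above, are reported. All 3 old arrays lay above all 3 young arrays for 16 and 13 genes of these lists, against 17.2% of all genes.

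Gzmk and several chemokine genes had large differences in these lists. Gzmk, a granule protease, was at 1.25, 1.20 and -1.02 in old and at -5.14, -5.58 and -4.83 in young cells. Ccl5, a chemokine of effector T cells, was at 6.66, 6.66 and 4.78 in old and at 1.77, 1.65 and 2.83 in young cells. Old and young arrays did not overlap for either gene, and in old cells replicate 3 was the lowest. Gzmk was above background on 1 of 3 young arrays, so its difference is approximate. The differences were 5.66 ± 0.48 for Gzmk (adjusted p = 0.00036) and 3.95 ± 0.51 for Ccl5 (adjusted p = 0.0018). The inflammatory chemokine genes Ccl4 and Ccl3 were higher too, Ccl4 by 4.73 on slide 1 and 1.26 on slide 2, and Ccl3 by 3.39 and 2.19. Xcl1, a chemokine for dendritic cells, was higher by 3.10 and 0.93.

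Receptors and regulators followed. Ccr2, a receptor that leads cells into inflamed tissue, was at -0.49, -0.56 and 2.07 in old and at -3.40, -3.65 and -0.50 in young cells. It was higher by 3.00 on slide 1 and 2.57 on slide 2, although old replicates 1 and 2 and young replicate 3 lay side by side across the slides. Cxcr3, the receptor for interferon-induced chemokines, was at 2.58, 2.55 and 3.21 in old and at -0.31, -0.30 and 1.45 in young cells, with no overlap (2.50 ± 0.20, adjusted p = 0.00033). Tbx21, the T-bet gene, was at 0.87, 0.75 and 1.38 against -1.20, -1.46 and -0.07, and Ifng, which encodes interferon gamma, at 1.82, 1.79 and 2.17 against -1.15, -0.96 and 0.65. Every old array lay above every young array for both genes. The differences were 1.91 ± 0.18 for Tbx21 (adjusted p = 0.00050) and 2.41 ± 0.26 for Ifng (adjusted p = 0.00090), and only that of Tbx21 passed without the block (adjusted p = 0.015). Klrg1, a receptor of effector T cells, was higher by 1.87 and 1.44 on the slides. The calcium-binding gene S100a4 was higher by 1.53 and 1.25, and Il12rb1, an interleukin 12 receptor chain, by 1.73 and 1.33.

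For some effector genes the call rested on slide 1. Eomes, a T-box factor, stood 2.98 higher on slide 1 and 0.47 on slide 2. Nkg7, a granule protein, was at 3.83, 3.87 and 0.94 in old and at 0.03, 0.09 and 0.79 in young cells, so that old replicate 3 lay next to young replicate 3. The slides gave 3.79 and 0.15, and the difference between them passed the limma test (adjusted p = 0.00098). Il18rap, a chain of the interleukin 18 receptor, showed 2.04 and 0.13. Maf, a regulator of cytokine genes, was the memory gene called lower (-1.92 ± 0.62, adjusted p = 0.046, and -1.76 on slide 2), and its difference turned to 0.91 with the mean of all its probes. Cd44 was not called (above), nor was Zeb2, a T-bet partner (0.97, adjusted p = 0.063).

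**Figure D4:**
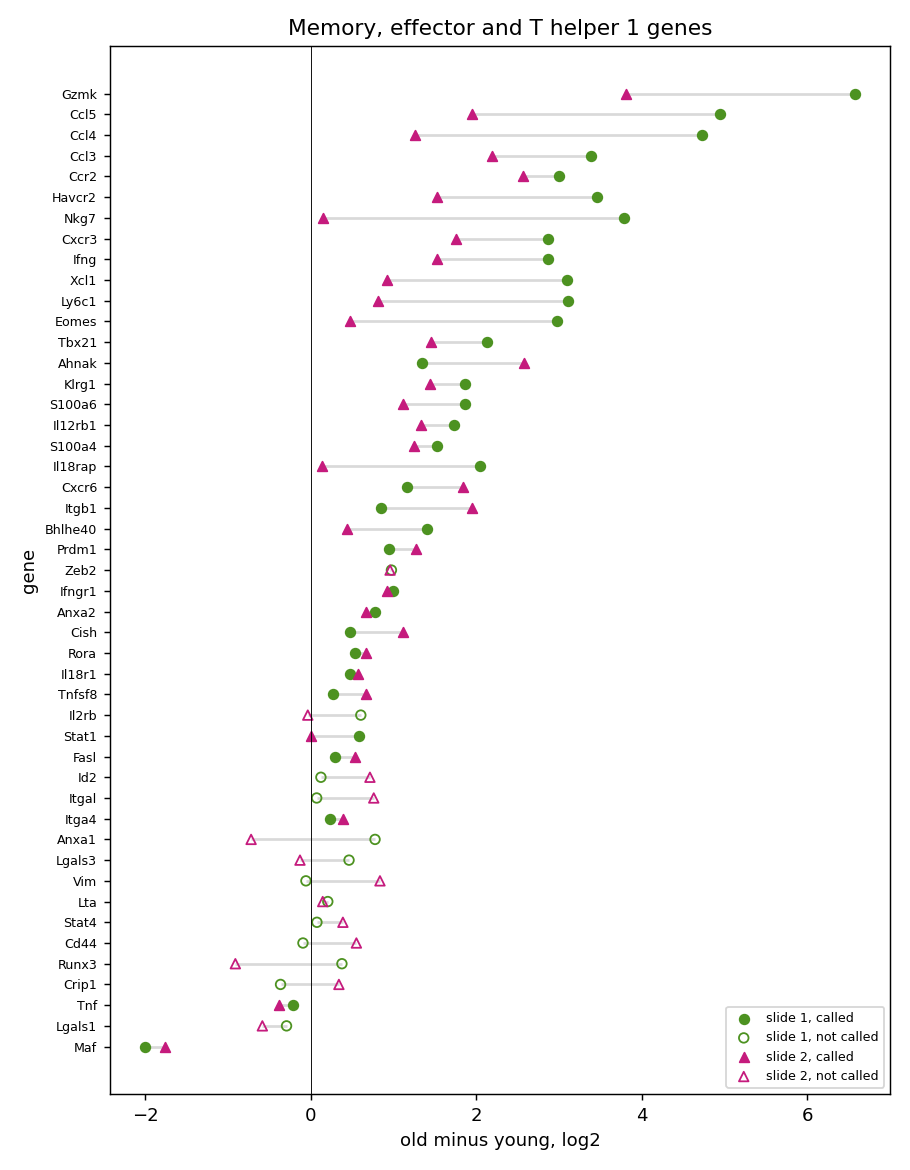
Age difference on slide 1 (green circles) and slide 2 (pink triangles) in log2 units for the memory, effector and T helper 1 genes reported, filled where the gene was called. Most filled points lie right of 0 on both slides, and Nkg7 and Il18rap lie far right on slide 1 but near 0 on slide 2.

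T-box factors bind letters close to TCACACC and RUNX factors bind TGTGGT, and both classes act on effector genes in T cells. The 250 bases before the transcription start are shown for the genes with the largest increase in these lists that the promoter table held, so that the letters can be read in place. They come from RefSeq on GRCm38.p6, 5′ to 3′ on the strand of the gene, with matches to TCACACC or GGTGTGA (T-box) and to TGTGGT or ACCACA (RUNX) in capitals. Gzmk lies at chr13:113180966-113181215 on the minus strand, Ccl3 at chr11:83649379-83649628 on the minus strand, Ccr2 at chr9:124101933-124102182 on the plus strand and Havcr2 at chr11:46454681-46454930 on the plus strand.
Gzmk: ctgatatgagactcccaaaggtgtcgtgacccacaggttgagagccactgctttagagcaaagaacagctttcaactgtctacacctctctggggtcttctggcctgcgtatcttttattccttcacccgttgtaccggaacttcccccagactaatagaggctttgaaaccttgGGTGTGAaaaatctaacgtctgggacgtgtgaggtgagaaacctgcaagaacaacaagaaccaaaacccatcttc
Ccl3: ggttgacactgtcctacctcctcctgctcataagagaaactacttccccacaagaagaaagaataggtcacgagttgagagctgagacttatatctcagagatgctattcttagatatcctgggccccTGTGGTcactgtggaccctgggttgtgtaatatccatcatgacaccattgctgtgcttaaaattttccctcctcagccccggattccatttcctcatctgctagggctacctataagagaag
Ccr2: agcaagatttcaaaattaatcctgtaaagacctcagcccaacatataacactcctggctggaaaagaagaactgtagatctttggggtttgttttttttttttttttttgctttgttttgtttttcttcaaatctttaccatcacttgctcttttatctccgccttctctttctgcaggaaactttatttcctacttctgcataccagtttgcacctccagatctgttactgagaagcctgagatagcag
Havcr2: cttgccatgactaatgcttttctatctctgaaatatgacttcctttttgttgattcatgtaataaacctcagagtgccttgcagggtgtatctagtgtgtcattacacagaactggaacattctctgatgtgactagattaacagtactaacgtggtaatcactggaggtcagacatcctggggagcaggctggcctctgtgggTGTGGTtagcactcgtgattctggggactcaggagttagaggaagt
The Gzmk window holds GGTGTGA starting 75 bases before the transcription start. The Ccl3 window holds TGTGGT at 122 bases and the Havcr2 window at 46 bases, and the Ccr2 window holds no match. Havcr2, which encodes the inhibitory receptor TIM-3, was higher by 3.46 on slide 1 and 1.53 on slide 2. Of 32851 windows of this length, 3.33% hold the T-box letters and 14% the RUNX letters. Of 33 memory or T helper 1 genes called higher, 26 were in the table, with 29 windows: 5 genes had the T-box letters, 8 the RUNX letters and 16 neither. A match is a run of letters and no evidence of binding.

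Genes of the other helper types moved in both directions. Of 14 T helper 2 genes measured, of 20, 5 were called higher and 6 lower, where 16.9% and 16.3% of all genes were. Their median was -0.47. Those shares of all genes apply to each list count below that used the slide block and all arrays. Il4, the cytokine of this type, was at -1.45, -1.44 and -0.22 in old and at -5.33, -5.95 and -3.11 in young cells, with no overlap and only 1 young array above background (3.76 ± 0.31, adjusted p = 0.00034). The interleukin 33 receptor gene Il1rl1 was higher by 2.21 and 1.51 and the skin-homing receptor gene Ccr4 by 2.92 and 1.07. Gata3 was higher by 0.41 and 0.26. The cytokine gene Il13 was lower by 1.13 and 1.20 on the slides, and Il4ra, the interleukin 4 receptor, by 0.51 and 1.59. Of 8 T helper 17 genes measured, of 16, 2 were higher, Ccr6 (0.75 and 0.73) and Rora (0.53 and 0.67), and 1 lower, Il21r.

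Follicular helper genes, of which 14 of 20 were measured, had 7 called higher, 2 lower and a median of 0.42. Of all genes 16.9% were higher and 16.3% lower. Cxcr5, which guides cells into follicles and is also a B cell marker, was at 2.35, 2.31 and 0.82 in old and at -0.59, -0.63 and -0.49 in young cells, with no overlap (2.39 ± 0.29, adjusted p = 0.0013). The inhibitory receptor gene Pdcd1 was higher by 0.98 and 0.47 and the costimulator gene Icos by 0.42 and 0.73. Bcl6, the regulator of this type, was not called (0.30, adjusted p = 0.24, with 1 old array missing). Of 23 regulatory T cell genes measured, of 25, 8 were higher and 2 lower, with a median of 0.20. Penk, a precursor of opioid peptides, was at 1.41, 1.45 and 2.77 in old and at -1.26, -1.49 and 0.18 in young cells. Nt5e, the ectoenzyme CD73 that makes adenosine, was at 1.51, 1.42 and 2.21 against -0.39, -0.42 and 0.15. Neither gene overlapped between ages, and the differences were 2.73 ± 0.26 and 1.93 ± 0.13 (adjusted p = 0.00050 and 0.00022). Foxp3, the regulator of these cells, was at -0.72, -0.89 and -1.18 in old and at -0.09, -0.14 and -0.32 in young cells and was not called (adjusted p = 0.14). Of 14 inhibitory receptor and exhaustion genes measured, of 19, 5 were higher and 1 lower. Lair1, a collagen receptor, was higher by 1.39 and 1.37, and Lag3 was not called (0.95, adjusted p = 0.33).

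Chemokine and homing receptors were called in both directions. Of 22 measured, of 30, 10 were higher and 6 lower, where 16.9% and 16.3% of all genes were. Besides Ccr2, Cxcr3, Cxcr5 and Ccr4, the higher ones included Cxcr6, a receptor of tissue-resident cells (1.17 and 1.84), and Gpr15, a gut-homing receptor (0.85 and 3.35). Among the lower ones was Ccr7, which brings naive cells into lymph nodes, at 4.82, 4.76 and 3.29 in old and at 5.55, 5.31 and 4.89 in young cells. Its arrays did not overlap, and the difference was -0.96 ± 0.19 (adjusted p = 0.0076). Ccr9, a receptor of thymocytes and gut-homing cells, was lower by 1.11 and 1.56 and Cxcr4, the receptor for Cxcl12, by 0.62 and 1.64. Of 13 chemokine genes measured, of 30, 6 were higher and 1, Cxcl16, was lower. Of 19 integrin genes measured, of 24, 3 were higher, led by Itgb1, a chain of the late activation antigens (0.84 and 1.95), and 5 were lower, led by Itga2b, the platelet integrin (-0.80 and -2.70).

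Naive and quiescence genes were called in both directions. Of 29 measured, of 30, 9 were lower and 5 higher, where 16.3% and 16.9% of all genes were, and the median was -0.12. With median scaling 7 were lower and 1 was higher, where 9.2% and 9.26% of all genes were. Sox4 led the lower ones. Dapl1, a marker of naive T cells, was at 3.05, 3.04 and 2.17 in old and at 4.74, 4.78 and 3.47 in young cells, with no overlap (-1.58 ± 0.12, adjusted p = 0.00029). Igfbp4 was lower by 0.99 and 1.42, Actn1 by 0.86 and 1.38 and Foxo1, a regulator of homing and quiescence, by 0.55 and 1.05. The survival gene Bcl2 was higher by 0.65 and 1.74, Il7r, the receptor for interleukin 7, by 0.29 and 1.09 and the transcription factor gene Lef1 by 0.24 and 1.02. Tcf7 (0.025, adjusted p = 0.90), Klf2 (0.011, adjusted p = 0.96) and S1pr1 (0.064, adjusted p = 0.75), which keep naive cells quiescent or recirculating, were not called.

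Of 21 cytokine genes measured, of 41, 4 were higher and 5 lower, where 16.9% and 16.3% of all genes were. Besides Il4 and Ifng, Csf1, the growth factor of macrophages, was higher by 1.67 and 1.45, and Tgfb1 was lower by 0.58 and 1.26. Il2 was near background and was not called (0.16, adjusted p = 0.82). Of 34 cytokine receptor genes measured, of 43, 12 were higher and 6 lower. Il6ra, the receptor for interleukin 6, was at -0.47, -0.47 and -2.10 in old and at 1.45, 1.49 and -0.31 in young cells. It was lower on both slides, by 1.94 and 1.79, with old replicates 1 and 2 and young replicate 3 close to each other across slides. Il3ra, a receptor chain for interleukin 3, was lower by 2.16 and 1.80. TNF family genes, 32 measured of 43, had 8 higher and 3 lower. The higher ones included Tnfsf4, the ligand OX40L (3.43 and 0.75), and Tnfrsf13c, a receptor for the survival factor BAFF (1.66 and 1.90). Of 21 cytotoxic granule and killer receptor genes measured, of 32, 7 were higher and 3 lower. Gzmb, granzyme B, was higher by 3.52 on slide 1 and 0.46 on slide 2, and Prf1, perforin, was lower by 0.42 and 0.48.

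T cell receptor signalling genes were called in both directions. Of 43 measured, of 44, 12 were lower and 7 higher with changes of 1.08 or less, where 16.3% and 16.9% of all genes were. With the slide 2 pair alone, which has 1 array per age, the median was 0.22 rather than -0.051. With median scaling of the arrays 3 were lower and 1 higher, where 9.2% and 9.26% of all genes were. Cblb, a ubiquitin ligase that restrains the receptor, was lower by 0.68 and 1.88, and Zap70, the kinase next to the receptor, by 0.66 and 1.24. Cd3e, a chain of the receptor, was at 0.54, 0.53 and 0.43 in old and at 1.07, 1.16 and 1.67 in young cells, with no overlap (-0.80 ± 0.15, adjusted p = 0.0074). The phosphatase gene Ptpn22 was higher by 0.67 and 1.78. Early response genes, which rise within minutes of stimulation, had 10 of 27 measured (28 listed) lower and 3 higher, and 5 and 3 with median scaling. Jun was at -0.11, -0.13 and 1.98 in old and at 1.49, 1.53 and 2.70 in young cells. Both ages were higher on slide 2 and the old arrays were lower within each slide, by 1.63 and 0.72. Fosb was lower by 1.66 and 0.66 and Dusp1, a phosphatase of MAP kinases, by 1.48 and 0.73. None of these 3 genes was called without the block (adjusted p = 0.34 for Jun, 0.46 for Fosb and 0.37 for Dusp1). Ier3, an early survival gene, was higher by 4.05 and 0.94. Of 23 regulators of G protein signalling and phosphatases measured, of 28, 0 were called higher by limma (1 at an unadjusted p under 0.05) and 4 lower, Dusp1, Rgs11, Rgs14 and Spred2. NF-kB genes, 28 measured of 28, had 8 higher, among them Nfkb1 (0.44 and 1.59), and 7 lower, among them Rela (-0.45 and -1.16) and the inhibitor gene Tnfaip3 (-0.73 and -1.51).

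Interferon response genes had 17 called higher and 5 lower of 46 measured (50 listed), with a median of 0.22. They had 7 higher and 2 lower with median scaling. Of all genes 16.9% were higher and 16.3% lower, and 9.26% and 9.2% with median scaling. Ly6a, which encodes the Sca-1 antigen, was higher by 3.91 on slide 1 and 0.74 on slide 2, Oasl2 by 2.74 and 2.26 and the guanylate-binding protein gene Gbp3 by 1.76 and 1.85. The transcription factor gene Irf7 was lower by 0.72 and 1.96 and Mx2 by 0.68 and 1.11. Of 36 inflammasome and cell death genes measured, of 40, 8 were higher and 5 lower. Casp1, the protease that activates interleukins 1 beta and 18, was at 3.61, 3.60 and 4.22 in old and at 0.45, 0.45 and 1.05 in young cells. Casp4, which senses bacterial lipopolysaccharide inside cells, was at 3.84, 3.79 and 3.73 against 0.89, 1.03 and 1.25. Every old array lay at least 2 log2 units above every young array for both genes, with differences of 3.16 ± 0.12 and 2.73 ± 0.12 (adjusted p = 4.3e-05 for each). Both were also called without the block (adjusted p = 0.00042 and 0.00065). Nlrc4, an inflammasome sensor, was higher by 1.40 and 1.91. Bax, which permits cell death at mitochondria, was lower by 0.22 and 0.74.

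Genes of senescence, division and genome upkeep were called in both directions. Of 31 cell cycle inhibitor, p53 and senescence genes measured, of 35, 7 were higher and 4 lower. Cdkn2b, the inhibitor p15, was higher by 2.35 and 0.51 with 1 young array above background, and Cdkn1b, the inhibitor p27 of resting T cells, was lower by 0.36 and 1.01. Division and replication genes had 5 of 35 measured (40 listed) higher, led by Cdk6 (1.34 and 0.96), 3 lower and a median of 0.42. DNA repair and telomere genes had 7 of 39 measured (41 listed) higher, led by the helicase gene Wrn (1.01 and 1.00), and 8 lower, led by Ercc2 of excision repair (-0.65 and -2.28). Of 42 DNA methylation and histone modifier genes measured, of 43, 9 were higher and 10 lower. The acetyltransferase gene Kat2b was higher by 1.19 on each slide, Tet1, which oxidises methylcytosine, was lower by 0.93 and 2.28 and the deacetylase gene Sirt2 by 0.92 and 0.80. Shares called in a direction were 8.57 to 23.8% in these lists, beside 16.9% higher and 16.3% lower over all genes.

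Stress and metabolic genes gave a similar mixture with a few large values. Of 24 amino acid stress response genes measured, of 27, 3 were higher and 6 lower, where 16.9% and 16.3% of all genes were. Asns, asparagine synthetase, was at 1.41, 1.33 and 1.02 in old and at -1.51, -1.70 and -0.39 in young cells, with no overlap (2.45 ± 0.28, adjusted p = 0.0011). Chac1, which degrades glutathione, was above background on 0 young arrays and at least 3.42-fold higher. Ppp1r15a, which restores translation after stress, was at 1.26, 1.45 and 2.07 in old and at 3.77, 3.57 and 4.66 in young cells. It was lower by 2.41 ± 0.11 (adjusted p = 4.7e-05), close on both slides, and the ages did not overlap. Of 31 glucose, lactate and hypoxia genes measured, of 32, 4 were higher, led by Hk2, hexokinase 2 (1.48 and 1.23), and 5 lower, among them Gapdh (-0.54 and -1.22). Of 38 autophagy and lysosome genes measured, of 40, 7 were higher and 8 lower, and of 34 antioxidant and glutathione genes measured, of 41, 1 was higher and 3 lower. Map1lc3a, which coats autophagosomes, was lower by 1.15 and 1.76, and Gsr, glutathione reductase, was higher by 0.60 and 1.52.

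In the family of transforming growth factor beta and bone morphogenetic proteins, 27 of 37 genes were measured, with 4 higher and 6 lower. Of all genes 16.9% were higher and 16.3% lower. Besides the receptor Bmpr1a, its ligand Bmp7 was at 0.35, 0.38 and 0.13 in old and at -1.90, -2.05 and -1.80 in young cells, with no overlap (2.20 ± 0.16, adjusted p = 0.00025). The ligand antagonist Nog was lower by 2.00 and 3.19 and the decoy receptor Bambi by 1.30 and 1.42. Of 30 Notch and Wnt genes measured, of 42, 5 were higher and 7 lower, and the lower ones included the fringe enzymes Rfng (-0.96 and -2.01), Lfng (-0.77 and -1.31) and Mfng (-0.26 and -0.84), which add sugars to Notch. Of 24 purine nucleotide and prostanoid genes measured, of 38, 8 were higher and 2 lower. After Pla2g5 came Cd38, an enzyme that consumes NAD, at 2.44 and 1.12, and P2rx7, a channel opened by ATP, at 1.01 and 0.99, whereas Ltb4r1, a leukotriene receptor, stood at 3.35 on slide 1 and -0.058 on slide 2. Of 28 potassium and calcium channel genes measured, of 34, 8 were higher and 8 lower. Kcnk6, a leak channel, was higher by 2.46 and 1.43, and Orai1, the pore for calcium entry after receptor signals, was lower by 0.66 and 1.85.

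**Figure D5:**
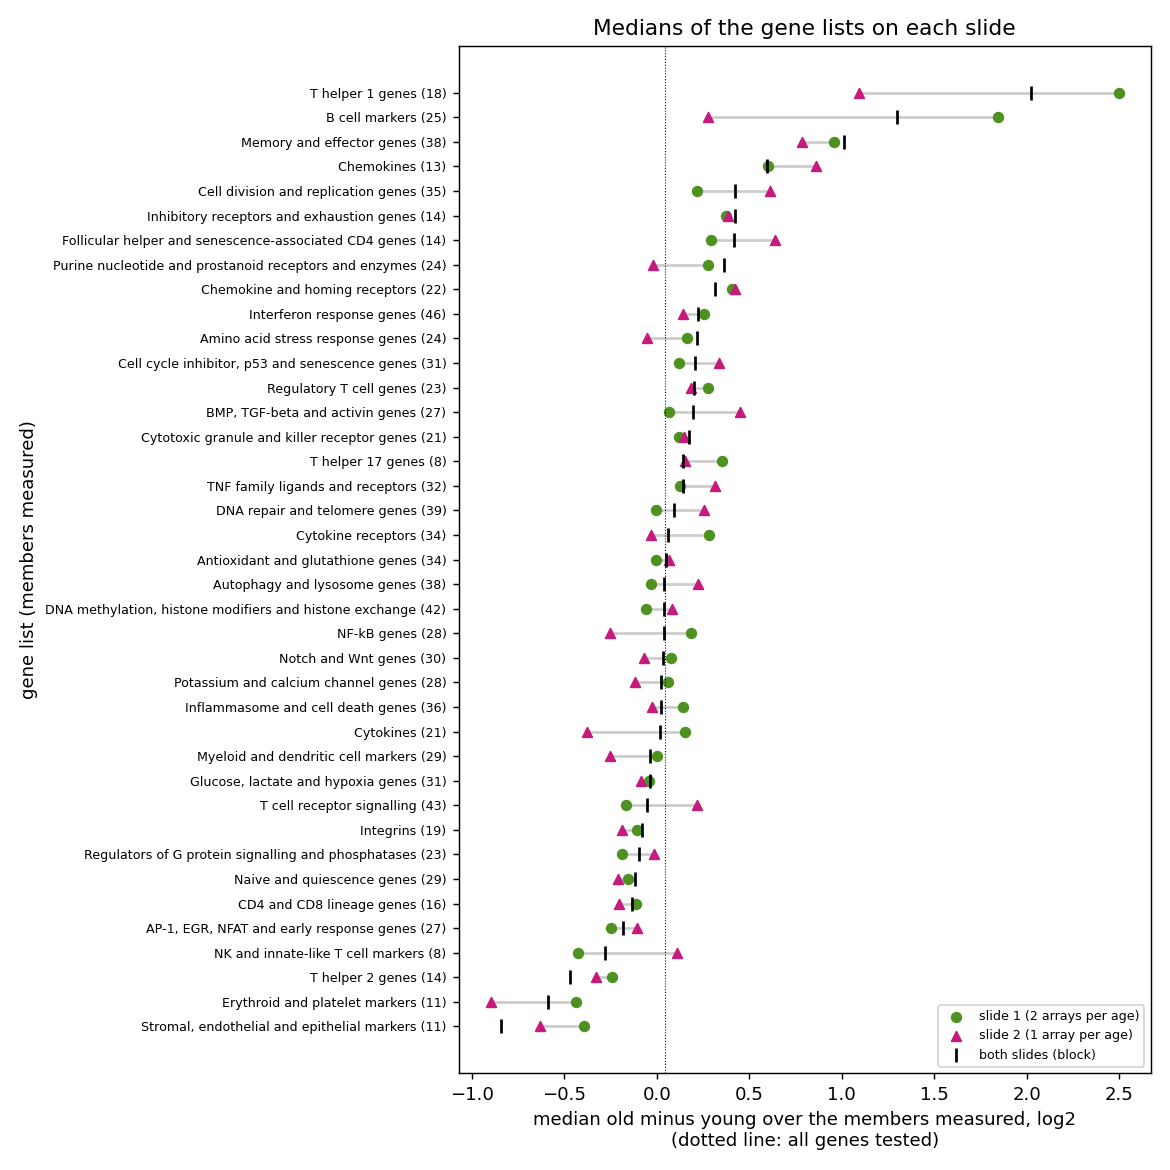
Median old minus young difference of each gene list in log2 units on slide 1 (green circles), slide 2 (pink triangles) and both with slide as a block (black bars), with the members measured in parentheses. The dotted line is the median of all genes, 0.046. T helper 1, memory and B cell lists lie to its right on both slides, the B cell list at 1.85 on slide 1 and 0.28 on slide 2.

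B cell markers were higher in old cells, with a median of 1.85 on slide 1 and 0.28 on slide 2. Of 25 measured, of 30, 15 were called higher by limma and 0 lower (20 and 0 at an unadjusted p under 0.05), with a median of 1.30. Of the 16 above background on all 6 arrays 10 were called higher, against 16.4% of all such genes. Without the block 8 were higher, against 2.33% of all genes. The slide 2 pair has 1 array per age, so age is not replicated there. Its median of 0.28 stood beside 0.066 over all genes. The log2 of the summed signals of the list, its summed level, was 6.15 to 6.91 in old cells. In young cells it was 5.54 and 5.73 in replicates 2 and 3. The 3.85 of young replicate 1 is not comparable, because Ighm was missing there. Ighm was at 4.99 and 4.64 in the other young arrays. Ms4a1, the B cell antigen CD20, was at 1.26, 1.19 and 1.47 in old and at -2.77, -2.79 and -0.60 in young cells, with no overlap (3.36 ± 0.45, adjusted p = 0.0019). Pax5, the B cell regulator, was at -3.67, -3.78 and -4.09 in old cells, was below background on all young arrays and was at least 2.07-fold higher. Cd79b, a chain of the B cell receptor complex, was higher by 2.63 on slide 1 and 0.92 on slide 2. The receptor gene Cd22 stood at 3.98 and -0.42. Cd79a was above background on 3 of 6 arrays. The part of B cell RNA in the higher memory and follicular genes was not tested.

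Myeloid markers differed more between slides than between ages. Of 29 measured, of 34, 7 were called higher by limma and 0 lower (8 and 3 at an unadjusted p under 0.05), with a median of -0.035. Their summed level was 5.18, 5.23 and 8.24 in old and 4.50, 4.03 and 8.08 in young cells, and was thus highest on slide 2 for both ages. Lyz2, lysozyme of macrophages, was at 2.40, 2.48 and 7.36 in old and at -0.044, -0.39 and 5.66 in young cells, and Cybb, an oxidase subunit, was higher in old cells by 3.28 and 1.28. The other defining markers did not follow. Csf1r was lower in old cells on both slides, at -2.99, -2.31 and -0.78 against -1.86, -1.78 and -0.10. Cd68 was lower on slide 2 (-2.67 against -1.64) and overlapped on slide 1. Itgam (-0.69 and 1.15) and Itgax (0.30 and -0.69) changed sign between slides. NK and innate-like markers had 2 of 8 measured (22 listed) higher, Nkg7 and Eomes, and 2 lower, Ncr1 and Klrd1. Their summed level was 3.15 to 4.21 in old and 2.42 to 2.98 in young cells. In old replicates 1 and 2 the sum was mostly Nkg7 (3.83 and 3.87), also listed as an effector gene. The defining NK receptor gene Ncr1 was lower on slide 1 and level on slide 2 (-1.75 and 0.038). Erythroid and platelet markers had 0 of 11 measured (19 listed) called higher by limma and 4 lower (0 and 4 at an unadjusted p under 0.05), with summed levels of 1.25 to 2.06 in old and 2.22 to 2.40 in young cells. Of these Ppbp was above background on 1 array. Stromal, endothelial and epithelial markers had 1 of 11 measured (24 listed) higher, the adhesion gene Cdh1 (2.28 and 2.99), and 5 lower, among them Col1a2 (-1.87 and -1.52), with summed levels of 3.94 to 5.14 in old and 5.60 to 5.85 in young cells. Of 16 CD4 and CD8 lineage genes measured, 2 were higher, led by Plac8 (3.68 and 1.61), and 5 lower, with Zbtb7b, the regulator of the CD4 fate, lower by 0.71 and 0.88. Of the CD8 chain genes, both above background on all 6 arrays, Cd8a was not called (0.58, adjusted p = 0.13). Cd8b1 was lower (-0.56 ± 0.18, adjusted p = 0.0496), by 0.73 on slide 1 and 0.22 on slide 2. The part of any of these cell types in the differences was not tested.

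Arrays outside the comparison were read for the same genes. In CD8 cells at 0 h, 2214 genes (14.4%) were called between ages, and 51.5% of all genes had the sign seen in CD4 cells. Leaving out Xist and Kdm5d, 18 of the 22 leading genes had the same sign in CD8 cells and 14 were called in that direction. Mela stood at 12.50, Pla2g5 at 8.12, Gzmk at 5.30, Bmpr1a at 3.71 and Kcnip3 at 5.59 in CD8 cells, and AK076876 at -7.00, Otud3 at -4.70 and Sox4 at -2.57. The median of the memory and effector list was 1.21 in CD8 cells and that of the T helper 1 list 1.57, beside -0.054 over all genes. Casp1 (3.44) and Casp4 (3.71) were higher in old CD8 cells too. Ppp1r15a was not (0.25, adjusted p = 0.17), and its difference between the cell types passed the test (adjusted p = 0.00051).

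After stimulation there was 1 array per age and time, so no test was made. At 4, 12, 24 and 72 h in CD4 cells, Mela stood 8.42, 8.56, 6.82 and 9.19 higher in old cells and Pla2g5 8.12, 8.36, 5.68 and 5.90 higher. AK076876 differed by -8.29, -5.88, -6.01 and -5.98, Otud3 by -5.36, -4.12, -6.25 and -1.36 and Acads by -2.03, -3.65, -3.80 and -3.11. These 5 genes kept their sign at every time. Gzmk stood 4.24, 4.89, 1.04 and 1.13 higher and Il4 4.86, 4.89, 5.24 and 3.30 higher. Ccl5 did not keep its sign, with 0.35, 2.61, 1.60 and -2.17, nor did Ifng, with 2.15, 2.73, 2.77 and -1.34. Of 21 leading genes other than Xist and Kdm5d with values at all times, 11 had the 0 h sign at all 4 times, where 12.9% of 14102 genes had.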

How the data were processed

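Agilent Feature Extraction turned the scans into background-corrected intensity values on a linear scale, which were deposited, per the file headers. The series matrix, used as an alternative, holds log2 values deposited by the authors, scaled to each array and centred per probe on arrays that are unknown. Its column medians at 0 h lay between -0.21 and 0.29, and its standard deviation from the scanner values was 0.046 to 0.053.

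Control spots were left out, spots flagged as non-uniform or population outliers set to missing and repeat spots averaged (coefficient of variation 8.93 to 10.9% on the 6 arrays). Probes were named through RefSeq genes of GRCm38.p6 by accession (23082), symbol (6582) or synonym (3073), and 8437 kept their original name. Probe coordinates in the files refer to mm7. The brightest probe of a gene stood for it and was kept where well above background on at least 3 of the 6 arrays. Old was set against young with limma 3.58.1 in R 4.3.3 over the 12 arrays at 0 h, with slide as a fixed block (6 residual degrees of freedom) and Benjamini-Hochberg adjustment over all genes. The procedure was tested on simulated data. A gene below background on every array of an age has a bound, written as at least N-fold: the brighter age's mean against, per array of the dimmer age, the larger of 2 signals, the probe's own and the dimmest that was well above background.

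The rule named the 12 largest increases and 12 largest decreases among called genes whose ages did not overlap on either slide and which were above background on all arrays of the higher age. It also named up to 5 called members per list and direction, and checks of the sort. Further list members are given where a list is described. The comparison, members and lists were chosen with earlier results of these data known. Another gate marker and some list members are not reported here. Alternatives covered blocks, arrays in the fit, scaling, background correction, filter, flagged spots, probe choice and source of the values. Other software was pandas 2.3.3, numpy 2.4.6 and matplotlib 3.10.9 under Python 3.11.15.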

Additional observations from a re-analysis of the deposited data

Results flagged for a closer look

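Of 24 leading genes, 9 had an age difference in CD8 cells that differed from that in CD4 cells in the limma fit at 0 h, where 21.3% of all genes did. The leading genes were chosen by the CD4 differences that enter this contrast, so the shares are not comparable. The values are CD8 minus CD4 on the log2 scale. AK015205 stood at -3.49 and AK040413 at -2.44. The age difference of AK015205 missed the threshold in CD8 cells (0.60 ± 0.48, adjusted p = 0.44), and that of AK040413 was 1.63 there. Lalba stood at 4.77, Bgn at 3.40, Rab3il1 at 3.16, Srrm4 at 2.94, Fthl17e at 2.74 and LOC628368 at 2.34. In CD8 cells the age differences of these 6 genes were 0.71, 0.91, 0.083, 0.20, -0.32 and -0.22, and each missed the threshold there. Acads stood at 1.05, with an age difference of -1.96 in CD8 cells (adjusted p = 0.00017) and -3.01 in CD4 cells.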

How the results depend on the processing

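The number of genes called depended on how the spread was measured. Without the slide block 556 genes were called (358 higher, 198 lower), and with the replicate block on the 6 CD4 arrays 447 (293 higher, 154 lower), 425 of them among the 5104. Same-numbered old and young arrays deviated together (correlations of 0.48, 0.49 and 0.63), but so did differently numbered arrays of slide 1 (0.47 and 0.51). Within slide 1 the correlation of same numbers was -0.0093, so the numbers share only a slide. With median scaling 2836 were called (1423 higher, 1413 lower), and with no filter on dim probes 2931 of 27666 (1410 higher, 1521 lower). With the arrays of an age and slide averaged to 1 sample, which was chosen after seeing the data, 2 were called, 1 higher and 1 lower. Leaving out 1 array gave 3254 to 4709 genes, 1580 to 2452 higher and 1656 to 2257 lower, with the fewest without old replicate 1 or 2 (3254 and 3259). The 6 CD4 arrays alone, a random slide block, quantile normalization, normexp on the median signal (chosen after seeing the data), flagged spots kept, the series matrix and the mean of all probes gave 4057 to 5419. The planned normexp on the mean signal was not run, because the slide 1 files analysed here have no column of it. A fit with the slide 2 pair alone for age was also added later. It compared 1 array per age, so age was not replicated and only its differences are given. The 24 leading genes kept their direction under 19 alternatives. The filter to genes above background on all 6 arrays left 7 of them, which kept theirs too. The leading genes were chosen for large differences without overlap on these same arrays. Their direction was thus nearly fixed by the choice, and its constancy is no separate evidence. Of the other named genes, the mean of all probes turned Maf to 0.91, Ets1 to -0.21, Nfatc2 to -0.097, Fadd to 0.17 and Tet3 to -0.28. The slide 2 pair turned Klrd1 to 0.071, Nfatc2 to -0.13, Bcl2l1 to 0.11, Ccnd3 to 0.010, Kdm6a to -0.069, Ltb4r1 to -0.058, Pla2g2d to -0.48, Cd22 to -0.42 and Ncr1 to 0.038. The causes of these changes were not tested.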
